A study of Mus musculus with 4 samples.

Results

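The genes described here encode the proteins of the mitochondrial ribosome. Their rule is by name, as every probe set on the array whose only gene symbol began with Mrpl or Mrps followed by a digit. The rule uses no measured value, but the group was taken up with earlier results of these data known. That gave 156 probe sets of 76 genes, out of 45037 non-control probe sets and 18193 genes with a symbol of their own on the array. Of the 76 genes, 47 carry the symbol of the large subunit (Mrpl) and 29 that of the small subunit (Mrps).

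The mitochondrial ribosome translates the few mRNAs made from mitochondrial DNA, all of which encode subunits of the respiratory chain and the ATP synthase. Its RNA comes from the mitochondrial genome, but all of its proteins are encoded in the nucleus, translated in the cytosol and imported. The position of their mRNAs in the cytoplasm is therefore a separate matter from the position of the ribosome they build. Some of these proteins descend from those of bacterial ribosomes, and others are found in mitochondrial ribosomes but have no bacterial relative.

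RNA was measured in NIH/3T3 cells, a fibroblast line derived from mouse embryos, with 2 pseudopodia samples and 2 cell body samples on 1 array each. The cells, in medium without serum, lay on a porous membrane that carried fibronectin, an extracellular matrix protein, on its lower face only, and were given 1 h to push protrusions through the pores before they were fixed in formaldehyde. Pseudopodia were scraped from below after the cell bodies had been wiped away, and cell bodies from above after the pseudopodia had been wiped away. All 4 samples were therefore from unmodified cells under the same stimulus, and the comparison asks where in the cell an mRNA lies, not how the stimulus changed it. The submitters describe the samples as independent without naming separate cultures. The p-values below therefore reflect the spread among these 4 samples, which may be technical.

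Levels are given as the intensity of a probe set, with a floor of 20 that 30.5% to 34.8% of the non-control probe sets of each array sat on. The number of arrays limits precision, and differences of dim member probe sets were also more widely spread than those of bright ones. The array medians lay between 40.5 and 45.6. Of 8 fibroblast markers, 7 were above the filter used for testing and Thy1 was at the floor on all arrays. Their summed intensity was 40416 to 40475 in pseudopodia and 54668 to 59711 in cell bodies, and Col1a1, Col1a2, Pdgfra and Pdgfrb were lower in pseudopodia. Summed markers of other cell types reached 700 to 703 against 774 to 1024 for 6 epithelial genes (Krt18 at the floor). For 5 haematopoietic genes (Itgam at the floor) they reached 820 to 866 against 907 to 1130. Most of that sum was Cd14, at 680 and 732 in pseudopodia and 765 and 979 in cell bodies, while Ptprc and Cd68 were under the filter. For 4 endothelial genes (Pecam1 at the floor, none above the filter) the sums were 99.9 to 180 against 98.2 to 101. The log2 ratio of 3′ to 5′ probe sets of the actin control was 0.56 and 0.65 in pseudopodia and 0.37 and 0.36 in cell bodies, while that of the Gapdh control lay between −0.098 and −0.066 on all 4 arrays and that of the pyruvate carboxylase control was 2.61 and 2.32 in pseudopodia and 2.54 and 2.25 in cell bodies, which overlap. The part of these differences in the results below was not tested. Each array reports RNA relative to the other RNA of its sample, so a lower amount of RNA in a protrusion and a lower share of 1 mRNA in it are different quantities, and only the second was measured. Fewer protrusions on the membrane and less RNA in each cannot be told apart from such values.

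For most of the 76 genes the mRNA level, relative to other mRNAs, differed little between pseudopodia and cell bodies, with the middle 50% of the log2 differences between −0.05 and 0.23. Only 3 genes passed the test, Mrpl47, Mrps18c and Mrps22, all higher in pseudopodia and by between 1.55-fold and 2.22-fold, and 0 were lower. The test was limma's moderated test on log2(intensity + 1) with 2 arrays a group, run on the brightest probe set of each of 11320 genes and adjusted by Benjamini-Hochberg over all of them, with an adjusted p under 0.05 as the threshold. All 76 genes entered it, because the brightest probe set of each lay above the filter, an intensity of 42.0. The share of members higher in pseudopodia was 3.95%, against 5.92% of all genes tested. The share lower was 0%, against 8.69% of all genes, and at an unadjusted p under 0.05 it was still 0 of 76, against 16.4% of all genes. In either direction 14.6% of all genes passed. With any 1 of the 4 arrays left out, which leaves 1 array in a compartment, limma called no gene, member or not. The median log2 difference of the members was then 0.0132 to 0.0776.

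The promoters of the 3 called genes are shown because the 3 have in common only their direction here, and that of Mrps18b because it is a paralog of Mrps18c whose mRNA was not called. The sequences are from RefSeq on the mouse assembly GRCm38.p6 and run from 250 bases before to 50 bases after the annotated start of the gene, 5′ to 3′ on the strand of the gene. Capitals mark the exact string CCGGAAG or its reverse complement CTTCCGG. The string is a form of the site that factors of the ETS family (such as the mitochondrial biogenesis regulator GABP) bind. The windows are chr3:32736706-32737005 on the minus strand for Mrpl47, chr5:100798509-100798808 on the plus strand for Mrps18c, chr9:98601630-98601929 on the minus strand for Mrps22 and chr17:35916391-35916690 on the minus strand for Mrps18b.
Mrpl47: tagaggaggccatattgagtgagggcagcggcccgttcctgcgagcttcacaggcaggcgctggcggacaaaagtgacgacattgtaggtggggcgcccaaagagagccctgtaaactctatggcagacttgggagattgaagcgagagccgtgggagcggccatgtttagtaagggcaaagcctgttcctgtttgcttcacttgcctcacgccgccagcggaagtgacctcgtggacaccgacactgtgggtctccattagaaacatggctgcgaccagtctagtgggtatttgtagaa
Mrps18c: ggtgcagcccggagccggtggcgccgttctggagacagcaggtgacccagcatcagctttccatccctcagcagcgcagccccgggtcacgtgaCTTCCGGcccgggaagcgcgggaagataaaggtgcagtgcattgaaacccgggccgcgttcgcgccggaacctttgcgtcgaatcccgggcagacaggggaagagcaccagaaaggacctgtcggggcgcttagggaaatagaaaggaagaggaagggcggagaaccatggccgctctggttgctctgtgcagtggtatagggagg
Mrps22: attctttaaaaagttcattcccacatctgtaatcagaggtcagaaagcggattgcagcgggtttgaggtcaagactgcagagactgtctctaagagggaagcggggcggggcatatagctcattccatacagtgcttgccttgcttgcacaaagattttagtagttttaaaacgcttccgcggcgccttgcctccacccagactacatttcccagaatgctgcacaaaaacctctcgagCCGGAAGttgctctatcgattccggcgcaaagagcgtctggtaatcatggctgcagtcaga
Mrps18b: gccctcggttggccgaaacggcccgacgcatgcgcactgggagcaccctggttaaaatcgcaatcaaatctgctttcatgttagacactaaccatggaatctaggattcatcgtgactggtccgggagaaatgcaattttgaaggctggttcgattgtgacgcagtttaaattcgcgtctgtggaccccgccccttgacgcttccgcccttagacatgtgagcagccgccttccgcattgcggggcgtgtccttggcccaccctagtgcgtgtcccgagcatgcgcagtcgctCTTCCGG

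Mrps18c, Mrps22 and Mrps18b each held this exact ETS string 1 time in the window, and Mrpl47 did not hold it. Other forms of the ETS site were not searched for, so Mrpl47 may hold one. Over the 67 members with a known promoter, 25 (37.3%) held the string on either strand, 14 of 41 large subunit genes and 11 of 26 small subunit genes. It stood in 20.2% of 9148 genes tested on the arrays and 9.93% of all 27025 genes with a known promoter. The core GCATGCG of NRF1, another regulator of nuclear genes for mitochondria, stood in 8 members (11.9%), Mrps18b among them. It stood in 7.37% of tested genes and 4.01% of all genes with a known promoter. The letters TATAAA of the TATA box stood in 5 members (7.46%), against 8.66% of tested genes and 15.7% of all. None of these 3 strings of letters contains another, and both strands were searched for each. The median log2 difference between pseudopodia and cell bodies was 0.09 for the 25 genes with CCGGAAG, of which 2 were called higher. It was 0.04 for the 42 without this string, of which 1 was called higher. Of all tested genes 5.92% were called higher.

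Mrpl47, the relative of the bacterial protein L29 near the exit of the peptide tunnel, had intensities of 1155 and 1163 in the pseudopodia arrays and 550 and 493 in the cell body arrays. Both pseudopodia values were thus above both cell body values by a wide margin. The log2 difference was 1.15 ± 0.14 (SE, 2 arrays a group, 95% interval 0.80 to 1.5), a 2.22-fold higher level in pseudopodia with limma's adjusted p = 0.0166. It was the single member at least 2-fold apart (1.32% of 76 genes, against 8.94% of all tested genes). Mrpl47 has a second probe set above the filter, far dimmer at 74.0 and 60.03 in pseudopodia and 59.6 and 67.1 in cell bodies, in which the compartments overlapped.

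Mrps18c is 1 of 3 mammalian relatives of the bacterial small subunit protein S18. Its intensities were 2177 and 2024 in pseudopodia and 1055 and 1188 in cell bodies, without overlap. The level was 1.87-fold higher in pseudopodia, a log2 difference of 0.91 ± 0.14 (SE, 95% interval 0.54 to 1.27) with limma's adjusted p = 0.0226. The other two relatives did not follow it. Mrps18b, also a small subunit protein, stood at 3111 and 2919 in pseudopodia and 3515 and 3524 in cell bodies, a log2 difference of −0.22 (limma adjusted p = 0.312, interval −0.56 to 0.11). Mrps18a, which despite its symbol sits in the large subunit, stood at 2250 and 2261 against 2387 and 2450, a log2 difference of −0.10 (limma adjusted p = 0.646) that turned to 0.034 after quantile normalization. In the deposited intensities of both of these the pseudopodia arrays lay slightly below the cell body arrays, and the 95% interval of each ended below the start of that of Mrps18c, although the difference between the paralogs was itself not tested.

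Mrps22, a small subunit protein without a bacterial relative and in humans a gene of inherited mitochondrial disease, stood at 1017 and 973 in pseudopodia and 661 and 622 in cell bodies. The groups did not overlap. The level was 1.55-fold higher in pseudopodia, a log2 difference of 0.63 ± 0.13 (SE, 95% interval 0.30 to 0.97) with limma's adjusted p = 0.0404. This call sat close to the threshold, and when all probe sets were tested one by one the adjusted p was 0.0570.

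**Figure D1:**
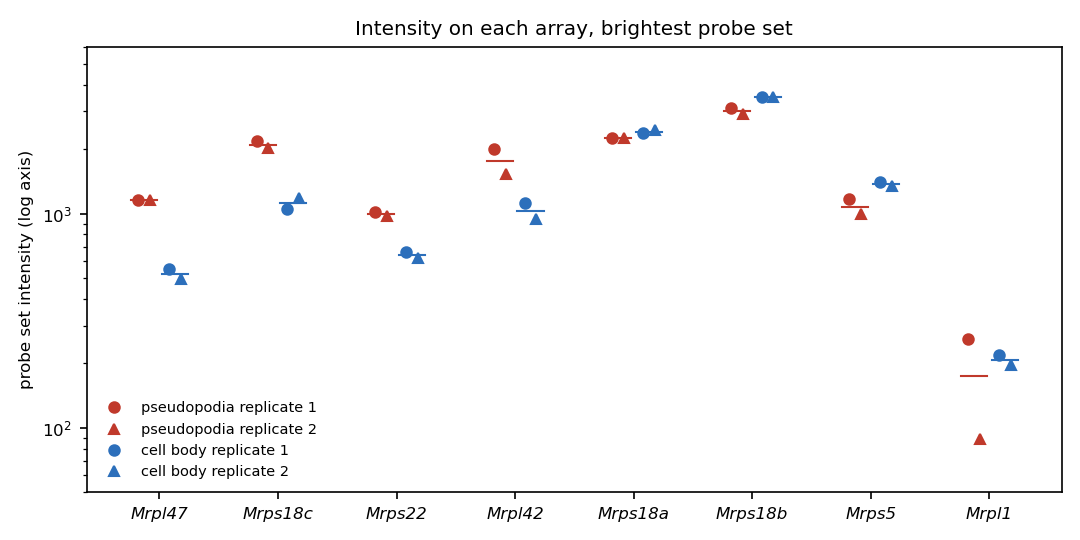
Intensity on a log axis on each of the 4 arrays for the 3 member genes called, Mrpl42, the other two Mrps18 paralogs, Mrps5 and Mrpl1, with 1 point per array and a line at the mean of each compartment. The 2 pseudopodia points of Mrpl47, Mrps18c and Mrps22 lie above both cell body points, and those of Mrpl1 spread more widely than its compartments differ.

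The member nearest the threshold without a call was Mrpl42, a large subunit protein without a bacterial relative. It stood at 1995 and 1533 in pseudopodia and 1118 and 949 in cell bodies, a larger difference than that of Mrps22 (0.76 on the log2 scale) with a larger standard error (0.19) and an adjusted p of 0.0620 in limma. It was called higher in 6 of 13 alternative settings. Its 2 pseudopodia arrays differed from each other more than those of Mrps22 did.

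Below it came a set of genes whose pseudopodia arrays were also above their cell body arrays but which did not pass. In the large subunit, Mrpl33, a relative of bacterial L33, stood at 2926 and 2876 in pseudopodia and 2129 and 2003 in cell bodies (log2 difference 0.49, limma adjusted p = 0.0694). Mrpl32, a relative of L32 that the mitochondrial m-AAA protease matures, stood at 1898 and 1866 against 1356 and 1364 (0.47, limma adjusted p = 0.0723). Mrpl48, a mitochondria-specific protein, stood at 1537 and 1584 against 1166 and 1089 (0.47, limma adjusted p = 0.0776). In each of these 3 both pseudopodia arrays were above both cell body arrays.

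In the small subunit, Mrps15, a relative of the RNA-binding protein S15, stood at 2527 and 2621 in pseudopodia and 1776 and 1907 in cell bodies (log2 difference 0.48, limma adjusted p = 0.0734). Mrps36, which was named as a ribosomal protein but has since been found as a part of the 2-oxoglutarate dehydrogenase complex, stood at 961 and 1027 against 791 and 702 (0.41, limma adjusted p = 0.122). Mrpl13, a relative of L13 in the large subunit, stood at 2960 and 2729 against 2177 and 2138 (0.40, limma adjusted p = 0.116). Its 2 further probe sets differed by 0.53 and 0.61 on the log2 scale in the same direction. In all, 15 of 76 genes (19.7%) were higher at an unadjusted p under 0.05, against 15% of all genes tested.

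At the other end, Mrpl1, a relative of the protein of the bacterial L1 stalk, which guides spent tRNA out, had the lowest log2 difference at −0.45 with a standard error of 0.51. Its intensities were 259 and 89.0 in pseudopodia and 219 and 197 in cell bodies. The 2 pseudopodia arrays enclosed both cell body arrays, so the value carried no direction, and without the second pseudopodia array it was 0.32. Mrps5, a relative of S5 by the mRNA entry channel, stood at 1168 and 992 in pseudopodia and 1404 and 1347 in cell bodies, a log2 difference of −0.35 with limma's adjusted p = 0.184. After Mrps18b came Mrpl14, Mrpl38 and Mrpl20, with log2 differences of −0.19, −0.17 and −0.17 and limma adjusted p of 0.402 to 0.478. For Mrps5 and these 3 both pseudopodia arrays lay below both cell body arrays.

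Of the 5 members with the highest probe set intensities, 4 were near 0. Mrps6 stood at 6758 and 5672 in pseudopodia and 6162 and 6041 in cell bodies. The log2 differences of Mrps6, Mrpl28, Mrpl51 and Mrpl12 lay between −0.061 and 0.021, with overlapping arrays in each, and that of Mrpl52 was 0.37 (limma adjusted p = 0.133). Probe intensities do not rank the mRNAs of different genes.

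**Figure D2:**
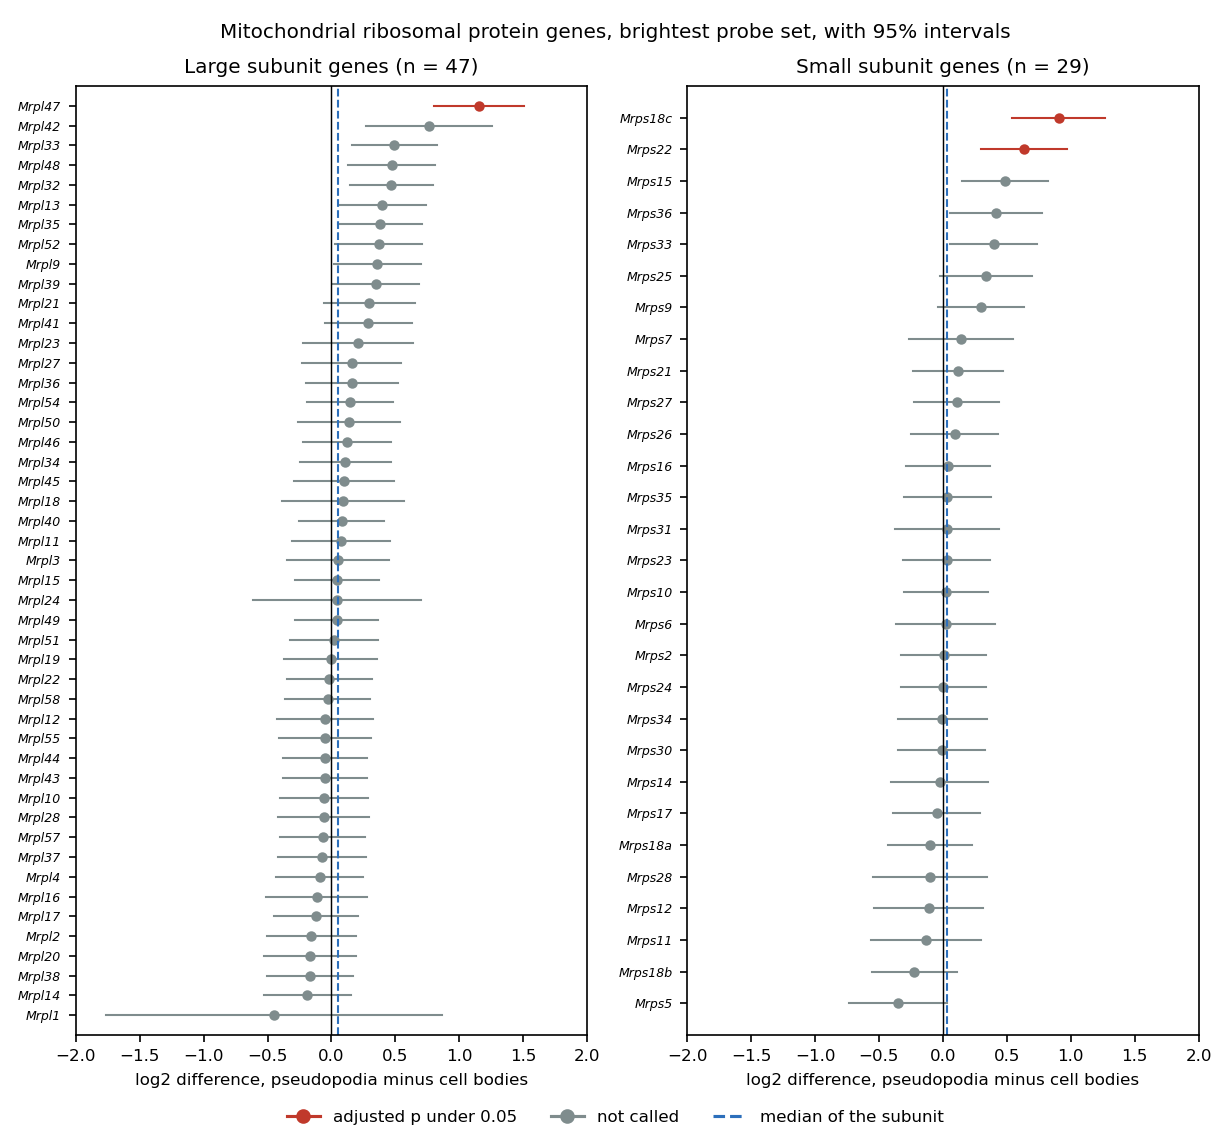
Log2 difference, pseudopodia minus cell bodies, of the brightest probe set of each of 47 large and 29 small subunit genes, with 95% intervals from limma and the median of each subunit as a dashed line. The intervals of Mrpl47, Mrps18c and Mrps22 (red) start at 0.80, 0.54 and 0.30, most others cross 0, and that of Mrpl1 is the widest.

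The large and the small subunit had nearly the same median. The median log2 difference was 0.05 for the 47 large subunit genes, which ranged from −0.45 to 1.15, and 0.03 for the 29 small subunit genes, which ranged from −0.35 to 0.91. Both medians were near that of all tested genes, −0.0020. In the large subunit 28 genes (59.6%) and in the small subunit 19 (65.5%) had a difference above 0, against 49.7% of all genes. Calls numbered 1 of 47 (2.13%) and 2 of 29 (6.9%), all higher, against 5.92% of all tested genes. Grouping by the subunit in which the protein sits instead of by symbol, which moves Mrps18a and Mrps30 to the large subunit and leaves out Mrps36, gave medians of 0.04 for 49 genes and 0.03 for 26 genes.

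The medians per array were as follows. The median log2 level of the large subunit genes was 10.92 and 10.88 in pseudopodia and 10.92 and 10.88 in cell bodies. That of the small subunit genes was 10.95 and 10.88 in pseudopodia and 10.72 and 10.84 in cell bodies, and for all tested genes it was 8.55 and 8.60 against 8.64 and 8.57. The small subunit's pseudopodia medians were thus both above its cell body medians, while those of the large subunit overlapped. The median of the genes' differences and the difference of the array medians are separate quantities, and they put the subunits in opposite order.

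By descent, the 46 genes with a bacterial relative had a median log2 difference of 0.02, with 26 above 0 and 2 called (Mrpl47 and Mrps18c). The 28 mitochondria-specific genes had a median of 0.09, with 20 above 0 and 1 called (Mrps22). Neither group held a gene called lower. Of all tested genes 5.92% were called higher, 8.69% were called lower and 49.7% had a difference above 0. Mrps36 and Mrpl58, a peptidyl-tRNA hydrolase built into the large subunit, belong to neither.

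The spread of the members was narrow. The middle 50% of their log2 differences spanned 0.28, against 0.56 for all tested genes. Members were also brighter, with a median intensity of 1818 against 382. Among 1536 other genes with a mean intensity between 1182 and 2711, the range of the middle 50% of the members, the differences spanned 0.47, with 4.04% called higher, 11.8% called lower and 8.46% at least 2-fold apart. The 38 members in that band spanned 0.35, with 1 called higher, 0 called lower and 0 at least 2-fold apart. The band was set after the data had been seen, and these are descriptions without a test.

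Counted by whether the arrays overlap, 28 of 76 members (36.8%) had both pseudopodia arrays above both cell body arrays, against 29.5% of all tested genes. The reverse held for 12 members (15.8%), against 31.4% of all genes, and 36 members overlapped. By subunit the counts were 17 up and 9 down in the large and 11 up and 3 down in the small. Between the 2 arrays of the same compartment the members' log2 values differed with an SD of 0.21 in pseudopodia and 0.16 in cell bodies. Between arrays of different compartments the SD was 0.26 to 0.32. The pseudopodia SD leans on 1 gene, Mrpl1, at 259 and 89.0, the widest gap of any member between these arrays. Across the 76 genes the difference was hardly related to the level (Pearson's r = −0.067, Spearman's rho = −0.152, points that share 4 arrays).

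Many of the genes are covered by more than 1 probe set, each a separate set of short probes along or beside the transcript. Of the 156 probe sets, 134 were above the filter, 22 were under it and 9 of those were at the floor on all arrays. The probe sets under the filter belong to Mrpl1, Mrpl3, Mrpl13, Mrpl15, Mrpl17, Mrpl19, Mrpl21, Mrpl33, Mrpl41, Mrpl42, Mrpl47, Mrpl52, Mrpl54, Mrpl58, Mrps11, Mrps14, Mrps25, Mrps26 and Mrps31. Thus 35 genes had 2 or more probe sets above the filter, with Mrpl15 the most densely covered at 8 in all, of which 5 passed. Tested one by one among 22519 probe sets, 3 of the 134 were higher in pseudopodia (2.24%, against 4.3% of all) and 4 lower (2.99%, against 7.44% of all). The lower ones include those of Mrps15 and Mrps21, which passed the filter only through their cell body arrays. In either direction 11.7% of all probe sets passed.

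The 4 lower calls were all on dim probe sets of genes whose brightest probe set was not lower. Mrps10, a relative of S10, had a dim probe set at 66.5 and 77.8 in pseudopodia and 253 and 313 in cell bodies, a log2 difference of −1.95 (limma adjusted p = 0.0241). Its brightest probe set, at 3769 and 3665 against 3582 and 3723, differed by 0.03. Within 1 gene, then, a probe set without overlap between the compartments stood beside one whose compartments overlapped.

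Mrps21, a relative of S21, had a dim probe set at 28.1 and 31.9 in pseudopodia and 107 and 139 in cell bodies (log2 difference −1.99, limma adjusted p = 0.0241), and a brightest one that differed by 0.12. Mrps15 had a dim one at 25.3 and 27.5 against 74.8 and 74.4 (−1.46, limma adjusted p = 0.0241), while its 2 bright ones differed by 0.48 and 0.39 in the other direction. Mrpl21 had a dim one at 49.4 and 51.8 against 104 and 109 (−1.06, limma adjusted p = 0.0260) and a brightest one at 0.29. In all 4 the dim pseudopodia values lay below the cell body values without overlap. The pseudopodia values of Mrps21 and Mrps15 were under the filter of 42.0, so these probe sets entered the test only through their cell body arrays. Their lower calls were shaped by the filter and are not read as results.

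The reverse was seen for Mrpl57, a mitochondria-specific protein, whose dim probe set stood at 203 and 198 in pseudopodia and 126 and 118 in cell bodies (log2 difference 0.71, limma adjusted p = 0.0449). Its brightest one stood at 3928 and 3931 against 4241 and 3994, a log2 difference of −0.07 that turned to 0.073 after quantile normalization. Mrpl1 too had probe sets of opposite sign, its second at 192 and 125 in pseudopodia and 80.2 and 49.8 in cell bodies (1.28, limma adjusted p = 0.0762).

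The differences of dim probe sets were more widely spread than those of bright ones. Among the 58 probe sets other than the brightest, the 32 with a mean intensity under 400 had a middle 50% that spanned 0.83 on the log2 scale, with 1 called higher and 4 lower. The 26 at 400 or above spanned 0.33, with 0 called either way and differences from −0.18 to 0.61. Of the 58 comparisons of a brightest with another probe set, 35 (60.3%) had the same sign, against 71.1% of 8065 such comparisons over all genes. Tested directly, by limma on the difference between the probe sets within each array, 0 of the 58 passed an adjusted p under 0.05, as did 0% of the 8065. At an unadjusted p under 0.05 it was 10 of 58 (17.2%), against 21.4% over all genes. The smallest adjusted p was 0.0749, for Mrps10, Mrps15 and Mrps21, and this comparison was added after the data had been seen. For Mrps15 and Mrps21 the dim probe set compared had passed the filter only through its cell body arrays.

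**Figure D3:**
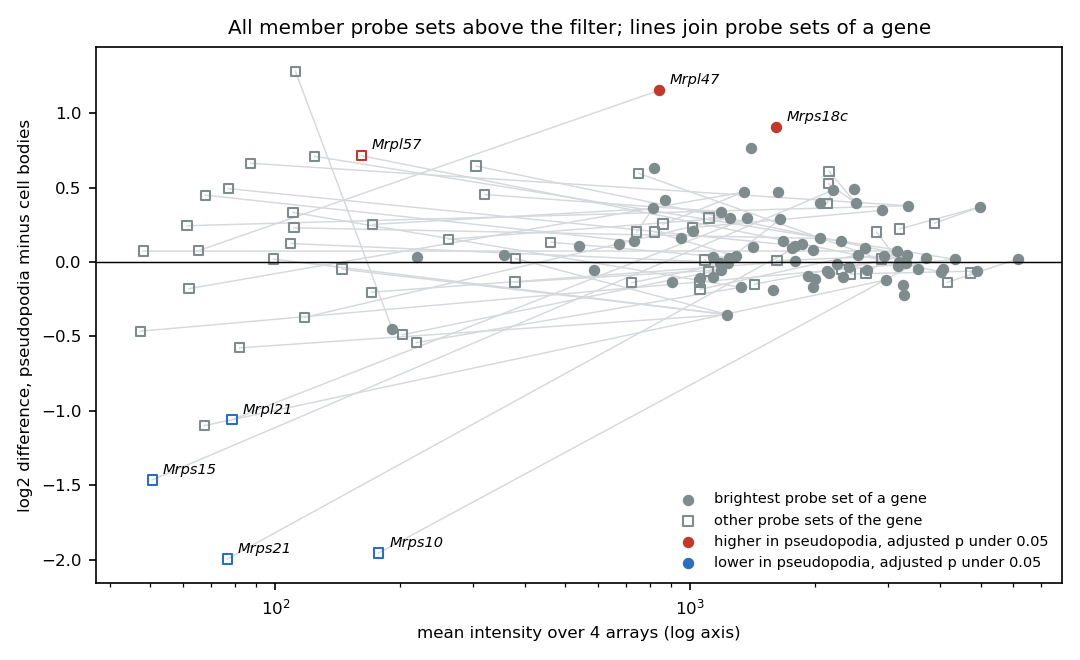
Log2 difference, pseudopodia minus cell bodies, of the 134 member probe sets above the filter against their mean intensity on a log axis, with calls taken from the test of all probe sets. The 4 probe sets called lower lie between −1.06 and −1.99 at the dim end, and most brighter ones lie near 0. Those of Mrps15 and Mrps21 passed the filter only through their cell body arrays.

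The rest of mitochondrial protein synthesis was read from lists chosen by function. Their counts stand beside 5.92% of all tested genes called higher and 8.69% called lower. Of 5 other mitochondrial ribosome proteins with symbols of their own, 4 were tested and Ptcd3, an RNA-binding protein of the small subunit, was higher. It stood at 986 and 871 in pseudopodia and 572 and 590 in cell bodies, a log2 difference of 0.67 with limma's adjusted p = 0.0404. Chchd1 (log2 difference 0.19), Gadd45gip1 (0.0072) and Dap3 (−0.13) were not called.

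Of 15 mitochondrial translation factors, 12 were tested, 2 were higher and 0 lower, with a median log2 difference of 0.07. Over all tested genes 5.92% were higher and 8.69% lower. Mtrf1l, a release factor that ends translation, stood at 133 and 122 in pseudopodia and 68.1 and 45.6 in cell bodies (1.18, limma adjusted p = 0.0338). Slirp, which stabilises mitochondrial mRNAs together with Lrpprc, stood at 2955 and 2752 against 1696 and 1633 (0.78, limma adjusted p = 0.0262). In both the pseudopodia arrays were above the cell body arrays.

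Of 25 assembly factors, 23 were tested, 0 were higher and 1 lower, with a median of −0.15 and 10 above 0 (43.5%). Over all tested genes 5.92% were higher, 8.69% lower and 49.7% above 0. The lower one was Dhx30, an RNA helicase, at 1054 and 973 in pseudopodia and 1490 and 1549 in cell bodies (−0.58, limma adjusted p = 0.0494). Of 22 mitochondrial tRNA synthetases and amidotransferase subunits, 21 were tested, 0 were higher and 1 lower, with a median of −0.18 and 5 above 0 (23.8%). The lower one was Vars2, which charges the mitochondrial valine tRNA, at 151 and 170 against 287 and 248 (−0.73, limma adjusted p = 0.0414).

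**Figure D4:**
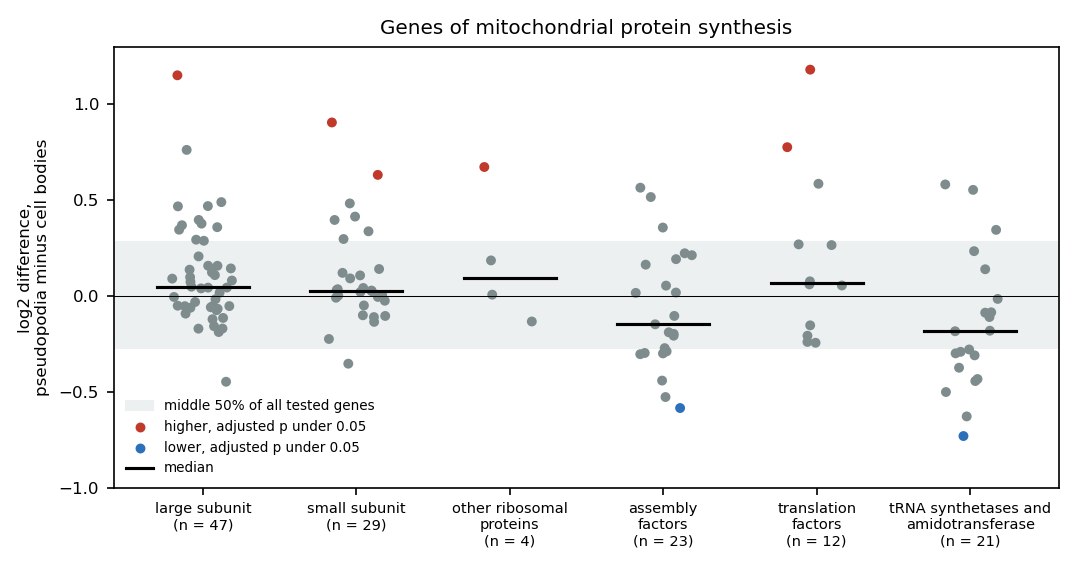
Log2 difference, pseudopodia minus cell bodies, of each tested gene of mitochondrial protein synthesis, 1 point per gene with the median of each list as a bar and the middle 50% of all tested genes in grey. The medians of both subunits lie at 0.05 and 0.03, those of assembly factors and tRNA synthetases at −0.15 and −0.18.

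The cytoplasmic ribosome and the respiratory chain are given for comparison. The 46 tested proteins of the cytoplasmic ribosome had a median log2 difference of −0.03 and a middle 50% that spanned 0.14, with 1 gene called higher (Rps6) and 1 lower (Rpl12). The 73 tested genes of oxidative phosphorylation had a median of 0.02 and a span of 0.28, with 2 called higher (Cox7b2 and Ndufa5) and 0 lower. Over all tested genes 5.92% were called higher and 8.69% lower. The differences between these groups and the members were not tested.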

How the data were processed

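RNA of 2 pseudopodia and 2 cell body samples was read on 1 Affymetrix mouse array each. The values deposited by the authors are linear intensities, already summarised to 1 value per probe set with a shared floor of 20. The sources used here do not name the software or the scaling. The array records list 1 chip lot, station, scan day and scanner. Both pseudopodia arrays were scanned before both cell body arrays, each on a fluidics module of its own, so scan order and compartment cannot be told apart.

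Symbols came from the platform annotation: 34945 of the probe sets had 1 symbol, 932 several and 9160 none, and 64 control probe sets were left out. All 76 members matched the RefSeq gene table. Log2(intensity + 1) was fitted with limma 3.58.1 in R 4.3.3, with the filter at the median mean of non-control probe sets (log2 5.42), Benjamini-Hochberg adjustment over all features tested, and no further scaling. The fit had 2 residual and 2.90 prior degrees of freedom. A permutation of 2 against 2 arrays cannot give a two-sided p below 33.3%. Fits were checked on simulated data. Alternatives were other filters, pseudocounts, scalings, probe set choices, a replicate block, a trended prior and each array left out. Named genes were the members called in either fit, the 10 highest and 6 lowest differences, the 5 brightest and the Mrps18 paralogs. Members whose probe sets disagreed in sign without a call, such as Mrps14, were not added for that reason. The members and lists were chosen with earlier results of these data known.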

Additional observations from a re-analysis of the deposited data

How the results depend on the processing

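Limma made 3 calls of members higher and 0 lower in the main setting. The count higher was 0 without the filter, 6 with a stricter one, 8 after quantile normalization and 13 with an intensity trend. Over all genes the count higher also grew, to 870 of 9771 with the stricter filter and 840 of 11318 after quantile normalization. With the mean of a gene's probe sets 2 members (Mrps10 and Mrps21) were called lower, against 1047 of 11320 genes. The dim probe set of Mrps21 in that mean passed the filter only through its cell body arrays. Without the filter 19 members were higher and 4 lower at an unadjusted p under 0.05, against 3844 of 18193 genes in either direction. Over all genes the counts of 670 higher and 984 lower became 0 and 2 without the filter and 1081 and 1483 with the trend. Leaving out each array in turn gave 0 to 0 calls in every count, with 2797 to 2891 genes at an unadjusted p under 0.05. Among member probe sets the 3 higher became 0 without the filter and 7 with the stricter filter or quantile normalization. They became 6 with a pseudocount of 16, median centring or the replicate block. The 4 lower became 0 without the filter and 2 with the stricter one. Counts over all probe sets were not taken in these settings, so the changes are not read as results about the members. The median log2 difference of the members was 0.157, of large subunit genes 0.178 and of small subunit genes 0.128 after quantile normalization, which moved the median of all genes to 0.053. For large subunit genes it was 0.0887 after median centring, 0.0873 with the mean of probe sets and 0.0229 to 0.0872 with each array left out. With each array left out it was 0.0132 to 0.0776 for all members and −0.00081 to 0.0751 for small subunit genes, below 0 without pseudopodia replicate 1. Deviations of arrays with the same replicate number correlated at 0.342 over tested genes, but there are only 2 such pairs and the labels do not tie them. With the replicate block 4 members were called higher, against 988 of 11320 genes. Mrpl47, Mrps18c and Mrps22 were each called in 8 of 13 alternatives, with log2 differences of 0.61 to 1.24, 0.82 to 1.01 and 0.59 to 0.71. Mrpl42, not called in the main setting, was called in 6, with 0.57 to 0.95 over all 13. Some directions turned. With the mean of a gene's probe sets this held for Mrpl21 (−0.38), Mrpl57 (0.32), Mrps10 (−0.96), Mrps15 (−0.20), Mrps21 (−0.94), Mrpl1 (0.42) and Mrps6 (−0.058), and Mrps10 and Mrps21 were then called lower. After quantile normalization it held for Mrpl57 (0.073), Mrpl28 (0.072), Mrpl12 (0.083) and Mrps18a (0.034). Without probe sets marked as shared Mrps6 was −0.14. With 1 array left out in turn the lowest and highest values lay on both sides of 0 for Mrps10 (−0.0023 without cell body replicate 1, to 0.053), Mrpl1 (−1.21 to 0.32, the latter without pseudopodia replicate 2), Mrps6 (−0.11 without pseudopodia replicate 1, to 0.15), Mrpl51 (−0.053 without pseudopodia replicate 1, to 0.087), Mrpl28 (−0.14 to 0.021, the latter without cell body replicate 2) and Mrpl12 (−0.15 to 0.053, the latter without cell body replicate 2). The cause of these changes was not tested. The other values of named genes kept their side of the threshold in 287 cases, passed it in 18 and lost it in 15.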

Other observations

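A few genes of the mitochondrial ribosome are read only by probe sets that carry a second gene's symbol and so were not among the members. The probe set shared by Mrpl30 and Gm6238 stood at 4141 and 4090 in pseudopodia and 3347 and 3276 in cell bodies, a log2 difference of 0.31 with limma's adjusted p = 0.216 over all probe sets. That shared by Mrpl53 and Ccdc142 differed by −0.08 (limma adjusted p = 0.762). Which of the genes a shared probe set reads cannot be told from its value.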
